A study of Drosophila melanogaster with 2 samples.

Results

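Deep intronic peaks are places where the tagged protein CG12769 was recovered from chromatin inside an intron, away from any known gene start. A reproducible peak was counted here when its summit, the base of highest signal, lay more than 2000 bp from the nearest transcription start site (TSS) of any gene, inside a transcript, and in no exon of any gene. The annotation was that of dm6 from Ensembl and FlyBase, on the 6 main chromosome arms and without transposable elements. Of the 8574 reproducible peaks, 2195 met these conditions, which is 25.6%. The other 6379 peaks were 3447 promoter peaks within 500 bp of a TSS, 1472 intronic peaks nearer than the limit to a TSS, 1131 intergenic peaks and 329 exonic peaks.

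The measurement was chromatin immunoprecipitation with sequencing (ChIP-seq) of whole Drosophila melanogaster embryos of both sexes, collected 10 to 24 h after laying. The flies were 1 transgenic line that stably expresses CG12769 with green fluorescent protein (GFP) joined to its C-terminal end, and the chromatin was sonicated and precipitated with an antibody to GFP. Both biological replicates, labelled 5 and 7, belong to 1 group, so no condition was compared, and the control experiment that the labels name was not used here. Each replicate has a list of 30000 peaks, and the reproducible list was made from both replicates by the irreproducible discovery rate (IDR). The lists give no read counts, so the depth is unknown. In the tests below the peaks or genes are the units, not the embryos, neighbouring peaks are not independent, and the intervals cover counting error only.

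Introns of flies, above all the long ones near the start of developmental genes, are known to carry enhancers, DNA stretches to which transcription factors bind and from which they act on a promoter some distance away. A gene that switches between several promoters, or that is used in many tissues, often holds many such elements in its introns. ChIP-seq shows where a protein sits on or near DNA, directly or through partners, and does not show whether the site acts on the surrounding gene or on a neighbour. RNA and chromatin accessibility were not measured in these samples.

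Windows of 121 bases around 6 of the strongest deep intronic peaks are shown first, because they lie among the places where signal far from gene starts was highest. The strongest peak of all, in CG12769, and those in chn and sbb are described further on without their sequence. The strongest peak of each of 6 host genes was taken, at places 2, 3, 4, 5, 10 and 13 among deep intronic peaks by value, and the plus strand of dm6, from the RefSeq genome, is printed with the summit in the middle. Capitals mark matches, on either strand, to the 16 words of 7 or more letters without N that were searched for.
Tlk, chrX:3742146-3742266: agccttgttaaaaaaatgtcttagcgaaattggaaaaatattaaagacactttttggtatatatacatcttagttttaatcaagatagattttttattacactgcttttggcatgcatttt
Raf, chrX:2297653-2297773: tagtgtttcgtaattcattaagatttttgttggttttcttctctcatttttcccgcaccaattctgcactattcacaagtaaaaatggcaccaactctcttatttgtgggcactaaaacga
CG32486, chr3L:3060743-3060863: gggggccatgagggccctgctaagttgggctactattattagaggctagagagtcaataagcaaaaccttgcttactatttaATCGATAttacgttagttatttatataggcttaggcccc
tara, chr3R:16237109-16237229: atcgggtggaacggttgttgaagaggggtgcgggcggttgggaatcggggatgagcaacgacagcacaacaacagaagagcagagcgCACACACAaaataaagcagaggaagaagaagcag
mnb, chrX:17880402-17880522: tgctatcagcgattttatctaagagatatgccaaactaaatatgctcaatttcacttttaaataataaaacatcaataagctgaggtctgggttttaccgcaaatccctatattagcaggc
ush, chr2L:484379-484499: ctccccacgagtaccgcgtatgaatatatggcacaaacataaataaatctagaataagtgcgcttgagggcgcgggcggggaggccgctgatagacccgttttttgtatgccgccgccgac
Of these 6 windows, the one in CG32486 holds the DNA replication-related element (DRE) word ATCGATA, and the one in tara holds a CA repeat, CACACACA. The windows in Tlk, Raf, mnb and ush hold none of the 16 words. The 6 summits lay between 2247 bp (Raf) and 5724 bp (CG32486) from the nearest TSS.

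A second set of windows shows a short sequence that was more frequent at deep intronic summits than in windows beside them, a comparison by which it was also chosen. Capitals mark the words ACACTGAG, CACTGAGA, ACTGAGAG and CTGAGAGA or their reverse complements, which share the letters CTGAG and overlap each other. The strongest peak with such a word is given for each of 6 hosts.
pnt, chr3R:23326410-23326530: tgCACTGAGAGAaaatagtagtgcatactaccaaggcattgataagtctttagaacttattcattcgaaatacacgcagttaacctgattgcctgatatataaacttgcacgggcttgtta
cv-c, chr3R:14473748-14473868: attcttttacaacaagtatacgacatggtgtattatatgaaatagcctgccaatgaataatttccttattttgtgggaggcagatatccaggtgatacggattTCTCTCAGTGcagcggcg
Pak3, chr3R:16449369-16449489: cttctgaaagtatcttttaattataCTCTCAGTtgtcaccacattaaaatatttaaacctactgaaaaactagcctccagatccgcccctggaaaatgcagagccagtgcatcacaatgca
Nrg, chrX:8538329-8538449: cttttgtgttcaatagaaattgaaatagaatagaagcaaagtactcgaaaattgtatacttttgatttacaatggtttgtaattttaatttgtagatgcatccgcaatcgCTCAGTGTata
aop, chr2L:2163671-2163791: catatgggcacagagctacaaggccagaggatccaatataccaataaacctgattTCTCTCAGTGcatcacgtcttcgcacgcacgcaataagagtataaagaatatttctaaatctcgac
bol, chr3L:9128294-9128414: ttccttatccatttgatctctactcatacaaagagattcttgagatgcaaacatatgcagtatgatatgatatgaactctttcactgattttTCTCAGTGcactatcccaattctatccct
In aop, cv-c and pnt the words overlap into 1 run, and in bol, Nrg and Pak3 a single word is present. The deposited values of these 6 peaks run from 427 (bol) to 906 (pnt), against 2006 to 3204 for the 6 windows above. Their frequency over all members is given with the other sequence words further on.

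Deep intronic peaks were fewer than the amount of deep intronic sequence would give. The bases that meet the 3 conditions, called eligible bases here, make up 31.0% of the sequenced bases of the 6 arms, while 25.6% of the reproducible summits lay in them (95% exact binomial interval 24.7% to 26.5%). The density was 53.1 summits per Mb of eligible bases and the ratio to the whole genome 0.827 (exact two-sided binomial test, p = 1.15e-27). Both replicates gave the same picture from their own strongest 8574 peaks, with 2179 deep intronic summits (25.4%) in replicate 5 and 2172 (25.3%) in replicate 7. The direction depended on how far down the list one reads. In the strongest 2143 peaks the ratio was 0.638, and in the pooled list of 30000 peaks, which holds many weaker peaks, it was 1.09 (exact two-sided binomial test, p = 4.52e-27), with 10156 deep intronic summits. With a TSS limit of 1000 bp the ratio was 0.977 (exact two-sided binomial test, p = 0.106).

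Signal at deep intronic peaks tended to be lower than at other peaks. The value in the peak lists is the authors' own signal per peak, on a scale not stated, and is used only to rank and describe peaks within a list. Among the 2195 peaks the lowest value was 169.7, the median 265 and the highest 4425, with quartiles at 206 and 396, and the median of all other reproducible peaks was 299. The strongest 2143 peaks of the list took in 423 deep intronic peaks, 19.3% of them (17.6% to 21.0%), and 1720 of the 6379 others, 27.0%. The difference was -7.69 percentage points (odds ratio 0.647, exact two-sided Fisher test, p = 2.87e-13). Among the others, the share was 30.4% for promoter peaks and 25.7% for intronic peaks near a TSS. It was 20.2% (17.9% to 22.7%) for intergenic and 19.1% (15.0% to 23.8%) for exonic peaks, with median values of 273 and 281. The lower signal was thus not particular to deep introns. In 8 equal steps of rank, the share of deep intronic peaks went from 18.2% in the strongest step to 30.9% in the weakest, rising at each step, while promoter peaks went from 50.9% to 31.8%. The width is mostly a fixed 390 bp, the median and upper quartile of deep intronic peaks, and was not compared.

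Most deep intronic peaks had a counterpart in each replicate. In replicate 5 the value of the overlapping peak ran from 19.4 to 2416 with a median of 120, and in replicate 7 from 32.04 to 2061 with a median of 162. No overlapping peak was present for 15 members in replicate 5 and for 17 in replicate 7. Over the 2164 members with a peak in both lists the values ranked alike with a Spearman correlation of 0.622, given as a description, since IDR had chosen peaks that rank alike. When only the strongest 8574 peaks of each replicate were used, 1571 deep intronic peaks (71.6%) overlapped a peak in both, against 76.9% of the others (difference -5.29 points, odds ratio 0.758, exact two-sided Fisher test, p = 8.55e-07). Among the others, the share was 78.4% for promoter peaks and 76.8% for intronic peaks near a TSS. For intergenic peaks it was 73.3% (70.6% to 75.9%) and for exonic peaks 73.3% (68.1% to 78.0%). Both intervals overlap that of deep intronic peaks (69.6% to 73.5%). Deep intronic peaks lay more often in the weaker steps of the list, where fewer peaks of any kind had such a counterpart. Cut into 4 equal steps of rank from strong to weak, the list held 423, 517, 600 and 655 of them. Within these steps the shares with a counterpart in both were 99.5%, 95.7%, 79.7% and 27.0% for deep intronic peaks and 97.5%, 93.8%, 77.8% and 33.5% for the others. With all 30000 peaks of each replicate the difference was 1.52 points the other way (exact two-sided Fisher test, p = 5.39e-05).

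Within deep introns, the summits gathered toward gene starts. Their distance to the nearest TSS had a median of 5182 bp and quartiles at 3163.5 and 8903.5 bp. The density went down with distance, from 91.1 summits per Mb between 2 and 3 kb to 74.2 between 3 and 5 kb, 61.8 between 5 and 10 kb, 40.9 between 10 and 20 kb, and 11.5 beyond 20 kb. The bases beyond 20 kb came to 8.63 Mb. Large genes without a summit, such as Myo81F with 1929 kb of eligible bases, are described further on. Their part in the low density far from a TSS was not tested. The farthest summit lay 54002 bp from any TSS, in an intron of 108407 bp of luna, a Krüppel-like zinc finger gene. The next lay in CG43759 (50070 bp) and in hth (49833 and 47102 bp). The nearest TSS belonged to the host gene for 1476 summits (67.2%) and to another gene for 719 (32.8%). For these 719 the nearest gene start was not that of the gene around the peak.

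First introns held most of the peaks. A summit was counted here when it lay in the first intron of at least 1 transcript, which held for 1343 summits (61.2%) and for 37.6% of the eligible bases. The density was 86.4 per Mb in these first introns and 33.0 per Mb in the rest. The difference was present at each distance from a TSS, with 123 against 53.4 per Mb at 2 to 3 kb, 99.8 against 49.5 at 3 to 5 kb, 82.6 against 46.3 at 5 to 10 kb, and 52.7 against 17.7 beyond 10 kb. No test was run on this comparison, and the 95% counting intervals did not overlap at any of the 4 distances. Cut into 3 equal parts from its 5′ end, the intron held 35.6%, 36.4% and 28.0% of the summits, with 32.6%, 34.5% and 33.0% of the bases.

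**Figure D1:**
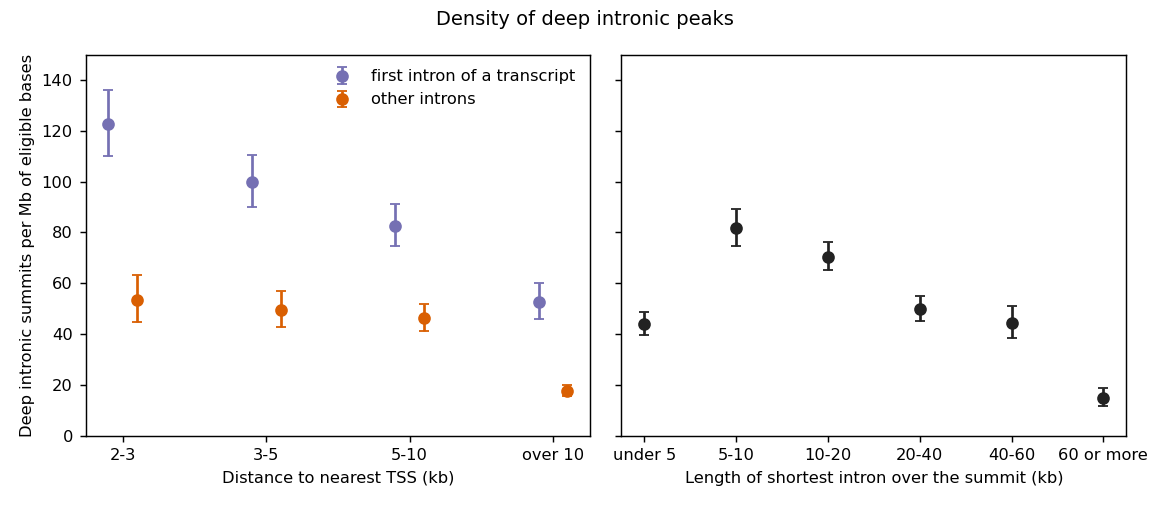
Deep intronic summits per Mb of eligible bases (y axis) by distance to the nearest TSS in kb, for first introns and other introns (left), and by length of the shortest intron over the summit in kb (right), with 95% exact Poisson intervals of the counts. First introns lie above other introns at each distance, and density is highest, at 81.8 per Mb, in introns of 5 to 10 kb.

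Introns of 20 kb or more held fewer summits per base than shorter ones, pooled over all distances from a TSS. The shortest intron over a summit had a median length of 12935 bp and ran from 65 to 126467 bp, where a summit may lie in several introns of different transcripts and the shortest was taken. Introns of 20 kb or more took 681 summits (31.0%, interval 29.1% to 33.0%) and 43.0% of the eligible bases, a ratio of 0.721 (exact two-sided binomial test, p = 7.76e-31). Their density was 38.3 per Mb against 64.2 per Mb in shorter introns. By length, the density was 44.0 per Mb under 5 kb, 81.8 at 5 to 10 kb, 70.5 at 10 to 20 kb, 49.97 at 20 to 40 kb, 44.6 at 40 to 60 kb and 15.0 at 60 kb or more. The class of 60 kb or more held 5.28 Mb of eligible bases, and the part of large genes without a summit in its density was not tested. At a like distance from a TSS the order was another one. Between 5 and 10 kb from a TSS the density was 27.5 per Mb in introns under 5 kb, 83.6 at 5 to 10 kb, 75.01 at 10 to 20 kb and 58.3 both at 20 to 40 kb and at 40 kb or more. Between 10 and 20 kb from a TSS it was 19.4, 31.2, 50.7, 51.4 and 35.7 per Mb in the same classes, so there the densest classes were introns of 10 to 40 kb. Repeat sequence moved with intron length. It made up 27.8% of the eligible bases in introns of 20 kb or more and 21.4% in shorter ones, and 358 summits (16.3%) lay in repeats, where the density was 35.8 per Mb against 58.5 per Mb outside them. With repeats left out, the ratio for introns of 20 kb or more was 0.758.

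The 2195 summits lay in 892 host genes, of which 862 were protein-coding and 30 were genes of noncoding RNA. Of the protein-coding genes with room, meaning at least 1 kb of eligible bases, 844 of 2375 held a summit, a background of 35.5%. The spread over hosts was uneven: 419 hosts (47.0%) held 1 summit, 473 held 2 or more, 125 held 5 or more and 25 held 10 or more. The 10 genes with most summits took 6.61% of them on 1.08% of the eligible bases, and the top 100 took 36.6% on 11.2%. Both replicates named largely the same hosts, with 891 in replicate 5, 879 in replicate 7 and 776 in both, 87.1% and 88.3% of the 2 lists. Of the 892 hosts, 766 (85.9%) were hosts in both. Overlapping genes shared 130 of the summits.

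The genes with most summits were led by a nuclear receptor gene and a corepressor gene. Eip75B, which encodes the ecdysone-induced nuclear receptor E75, held 24 summits in the reproducible list, 22 in replicate 5 and 23 in replicate 7, on 72.7 kb of eligible bases. It was followed by sbb, which encodes the corepressor Brakeless, with 22 summits, 17 in replicate 5 and 18 in replicate 7, on 46.8 kb. Both genes were above every other host in the reproducible list, and the counts of the 2 replicates lay at or below it. The overlapping genes Glut4EF and CG46467 share the same 16 summits, 15 in replicate 5 and 17 in replicate 7. Next came tara, a trithorax group gene (14, with 17 and 14 in replicates 5 and 7), Hr4, an orphan nuclear receptor (14, with 17 and 12), and rdx, an adaptor of a ubiquitin ligase that acts in Hedgehog signalling (14, with 13 and 14). The counts of the 2 replicates differed by as much as those of neighbouring genes in this order. shn, a zinc finger repressor that acts within Dpp signalling, also held 14 summits (14 and 11 in the replicates). So did bun, a gene of the TSC22 family (8 and 15), in which the replicates differed most among these 20 genes.

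Below these, ftz-f1, another orphan nuclear receptor, held 13 summits, 11 in replicate 5 and 13 in replicate 7. The same number lay in kirre, an adhesion gene of muscle founder cells, with 16 and 15 in the replicates, on 288 kb of eligible bases. hth, a homeodomain partner of the Hox proteins, held 13 as well, with 15 and 11. The noncoding gene lncRNA:CR44999 was the only host among the 20 that encodes no protein, also with 13 (13 and 12). Its span contains that of the protein-coding gene CG12535, which held 9 summits. Genes with 12 summits were cic, a repressor downstream of Ras signalling, Mef2, the muscle MADS-box factor, siz, which encodes an exchange factor for Arf GTPases, and Pdp1, a bZIP factor of the circadian clock. Genes with 11 were aop, which encodes the ETS repressor Yan, Eip74EF, an ecdysone-induced ETS factor, and fz2, a Wingless receptor. In these 7 genes the replicates gave between 8 and 12 summits.

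**Figure D2:**
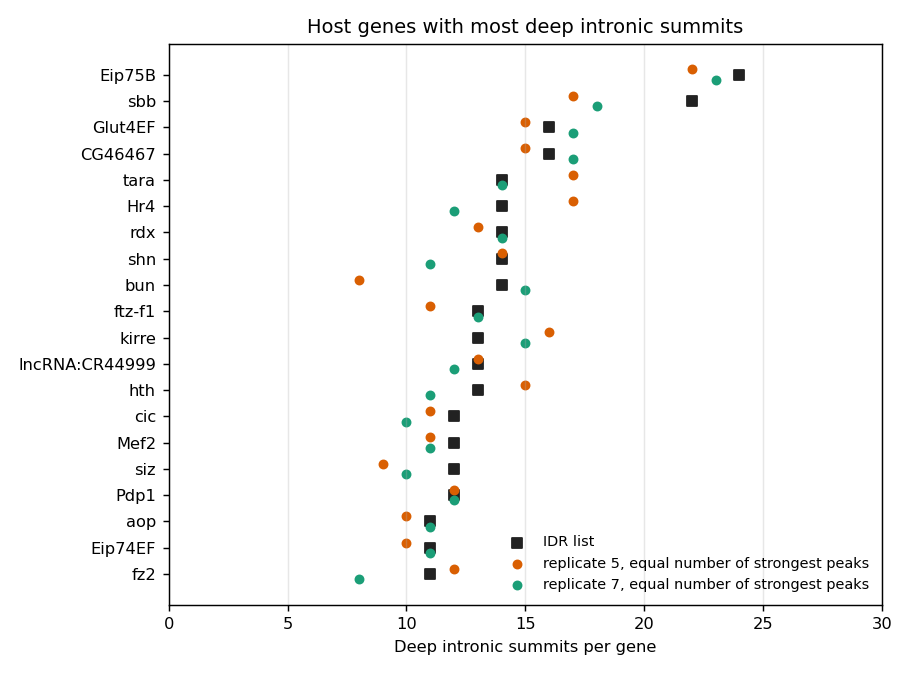
Number of deep intronic summits per gene (x axis) for the 20 host genes with most summits, in the reproducible list (squares) and in the equally long lists of the strongest peaks of replicates 5 and 7 (circles). Eip75B and sbb stand above the rest in the reproducible list, and bun shows the widest gap between replicates, 8 against 15.

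Scaled by room, another order appeared. Among hosts with 8 or more summits, aop had the highest density with 82.7 summits per 100 kb, ahead of Dad, the inhibitory Smad of Dpp signalling (78.1), PRAS40, a TOR complex component (74.4), siz (57.0) and tara (55.7). Eip75B had 33.0 and kirre 4.52 per 100 kb, so a count of summits followed gene size in part. Hosts had a median of 13.6 kb of room and genes without a summit 4.88 kb.

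More room did not always come with a peak. The share of genes with a summit rose from 14.2% at 1 to 2.5 kb of room to 58.4% at 50 kb or more, but of the 43 genes with 100 kb or more, 25 held none. The roomiest of them were Myo81F (1929 kb), Pzl (699 kb), lovit (426 kb), CG17684 (387 kb) and DIP-lambda (369 kb). None of these 5 had a deep intronic summit even among the 30000 pooled peaks, and repeats made up 32.8% to 46.8% of their eligible bases. bru3 and Rbp6, also without a reproducible summit, had 8 and 15 in the pooled list. Repeats made up a median of 33.0% of the eligible bases in the 25 genes and 23.5% in the 18 of that size that held a summit. The part of repeats in this was not tested.

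The strongest deep intronic peak lay in the gene of the tagged protein itself. It sits in the first intron of CG12769, 7908 bp long, at chr2R:8062312-8062970 and 2864 bp from the gene's nearest TSS, with a value of 4425 in the reproducible list, 2416 in replicate 5 (rank 15) and 2000.6 in replicate 7 (rank 36). It ranked 21 among all 8574 peaks. CG12769 held 5 deep intronic summits, 5 in each replicate, on 3.83 kb of eligible bases, and had a peak at its promoter. A second peak of that intron took place 8 among deep intronic peaks, with 1059 in replicate 5 and 2061 in replicate 7. The flies carry a transgene of this gene, and whether its copies add reads at the locus was not tested.

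Tlk, the gene of the Tousled-like kinase, held the next peak with 3204 in the reproducible list, 1311 in replicate 5 and 1922 in replicate 7, and Raf, the kinase above MEK in Ras signalling, came after it with 3061, 1510 and 1555. The replicates gave different orders for the pair, with Raf higher in replicate 5 and Tlk higher in replicate 7. CG32486 had 3058, with 1673 and 1414 in the replicates. The next 3 places all lay in the single intron of a tara transcript, 30338 bp long, with 2990, 2784 and 2442. The 2 strongest of them are summits of 1 interval, so a single peak of replicate 5 (1835) and of replicate 7 (1598) overlaps both. Further down stood mnb, a kinase of the DYRK family (2246, with 956 and 1263 in the replicates), chn, a zinc finger repressor (2133, with 1146 and 975), and sbb (2037, with 867 and 1182). All 3 lay in the first intron of a transcript.

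The remaining places up to 20 lay in other hosts. ush, the Friend-of-GATA cofactor, had 2006 in the reproducible list and near equal values in the replicates, 997 and 1002, as did Hr4 with 1998 (1003 and 984). MTF-1, the metal-responsive factor, had 1916 (904 and 1014). trx, which encodes a histone H3 lysine methyltransferase, had 1874, with 502 in replicate 5 and 1390 in replicate 7, the widest relative gap between replicates of the 20. The others were crp, a basic helix-loop-helix factor (1785), the overlapping genes CG6191 and CG45088 (1784), Lrch (1752) and Dys, the fly dystrophin (1649), whose summit lay in intron 16 of 34. In 7 of the 20 places the nearest TSS was that of another gene, as in ush, where it belonged to cbt.

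**Figure D3:**
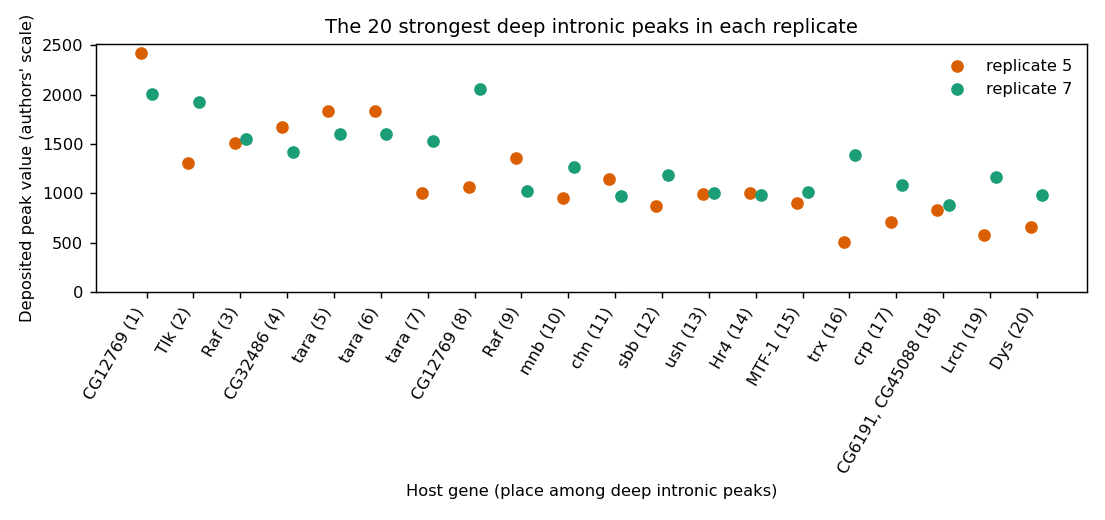
Deposited peak value (y axis, authors' scale) in replicate 5 and replicate 7 for the 20 strongest deep intronic peaks, named by host gene and ordered by value in the reproducible list. Values run from 502 (trx, replicate 5) to 2416 (CG12769, replicate 5), and which replicate is higher changes from peak to peak.

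Deep intronic peaks often came in groups. Of the 2195 summits, 976 (44.5%, interval 42.4% to 46.6%) had another deep intronic summit within 2000 bp. Joined at that distance, they formed 1601 groups, of which 382 had 2 or more summits, 126 had 3 or more and 24 had 5 or more, and 464 summits (21.1%) belonged to groups of 3 or more. The share was higher than for the other kinds of peak measured the same way: 31.1% of intronic peaks near a TSS, 33.5% of promoter peaks and 36.5% of intergenic peaks had another of their own kind within 2000 bp. These shares are a description, since the kinds differ in number and in the room they have. Between neighbours in the same gene the 1366 gaps had a median of 2566.5 bp and quartiles at 1095.25 and 7051.75 bp. The share fell to 19.4% in the strongest 2143 peaks and was 85.0% in the pooled list, so it follows the length of the list.

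The largest groups lay in sbb, with 8 summits over 8529 bp at chr2R:18329958-18338486, and in rdx, with 8 over 8207 bp at chr3R:14012741-14020947. The group in sbb holds that gene's strongest peak (2037), while the best value in the rdx group was 731. In ush, 7 summits spanned 4171 bp at chr2L:481948-486118. Groups of 6 were found in Raf, chn, Dad, siz, Pdp1, Mef2 and EcR, which encodes the ecdysone receptor, over 3742 bp (siz) to 6371 bp (Raf). The best value in them ran from 333 (Mef2) to 3061 (Raf). By intron, 1171 distinct introns held the summits, 693 of them 1 summit and 72 of them 5 or more, with at most 22 in 1 intron.

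Host genes more often had a peak at their own promoter. A reproducible promoter peak, within 500 bp of one of the gene's own TSSs, was found in 565 of 862 protein-coding hosts (65.5%, interval 62.3% to 68.7%) and in 457 of 1531 genes with room but no deep intronic summit (29.8%, 27.6% to 32.2%), against a background of 42.4% over the 2375 genes with room. Of the 862 hosts, 844 are among these 2375 genes, and the remaining hosts have less than 1 kb of eligible bases. The odds ratio was 4.47 (exact two-sided Fisher test, p = 9.52e-65), and it stayed between 2.93 and 6.61 in the 12 alternatives run. Genes with more TSSs have more chances of a promoter peak, and the difference was present at each number of TSSs. It was 52.7% against 21.3% for genes with 1 TSS position, 66.3% against 33.0% with 2, 81.0% against 45.1% with 3 or 4, and 85.7% against 68.5% with 5 or more, where the 95% intervals overlap (75.3% to 92.9% and 54.4% to 80.5%) and only 54 genes hold no deep intronic summit. Among the top 20 hosts, hth and cic had no promoter peak.

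**Figure D4:**
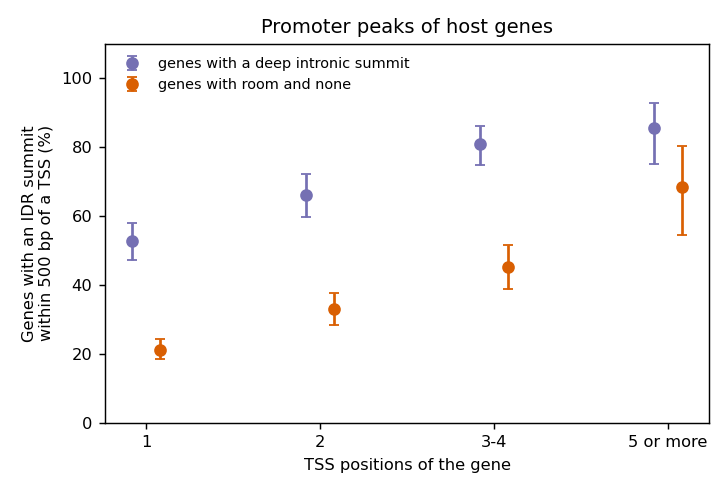
Share of protein-coding genes with a promoter peak (y axis, percent, summit at most 500 bp from a TSS) by the gene's number of TSS positions, for genes with a deep intronic summit and genes with room and none, with 95% exact binomial intervals. Hosts lie above the other genes in each class, from 52.7% against 21.3% with 1 TSS position to 85.7% against 68.5% with 5 or more.

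Kinds of genes differed in how densely deep intronic peaks lay in them. Density ran from 288 summits per Mb of eligible bases in chromatin and Polycomb genes to 11.9 in ion channel and synaptic genes. Chemosensory receptor genes, at 0, had only 5 members with room and cannot be placed. Summits per Mb of eligible bases were compared between 17 lists of kinds of genes with at least 5 members with room, beside 54.1 per Mb over all protein-coding genes with room. The median such gene held 0 summits. 11 lists were denser and 6 less dense, and without the member with most summits in each list 10 were denser. Over all genes with room the density itself was lower where there was more room, at 93.8 per Mb for 1 to 2.5 kb, 92.3 for 2.5 to 5 kb, 94.5 for 5 to 10 kb, 76.3 for 10 to 20 kb, 65.1 for 20 to 50 kb and 25.5 for 50 kb or more. The median room of the lists named below runs from 2.59 kb (chemosensory receptors) to 31.6 kb (axon guidance), and its part in their order was not tested. A member count is to be read against the 35.5% of all such genes that held a summit. That share itself rose with room, to 43.6% at 10 to 20 kb and 55.7% at 20 to 50 kb. Some genes, such as pnt and bnl, are in more than 1 list, and bases and summits shared by overlapping genes count for each gene. The lists are short, their members were chosen with earlier results of these data known, and the densities are a description with no test.

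Chromatin and Polycomb genes came first with 288 per Mb, with 326 in replicate 5 and 251 in replicate 7, and 8 of 14 members with room held a summit. Their room was small, with a median of 4.18 kb. The members with most summits were osa, a subunit of the Brahma remodelling complex (5), HDAC4, a histone deacetylase (5), Mi-2, a nucleosome remodeller (4), and trx (3). The trx count was 5 in replicate 5 and 1 in replicate 7, so that host differed between replicates. bZIP and clock genes had 255 per Mb, with 7 of 13 members holding a summit, led by Pdp1 (12), REPTOR, a factor downstream of TOR (5), cwo, a clock repressor (5), and Atf3, a stress-responsive bZIP factor (5).

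Nuclear receptors had the most summits for their number, 74 in 9 of 14 members with room, or 229 per Mb. Eip75B (24), Hr4 (14), ftz-f1 (13) and EcR (10), the gene of the ecdysone receptor, held most of them. Without Eip75B the density was 200.1 per Mb. Other ecdysone response genes stood lower at 82.9 per Mb with 7 of 12 members, led by Eip74EF (11), tai, a coactivator of the ecdysone receptor (6), and mld, a zinc finger gene needed for ecdysone production (3). Without Eip74EF that list fell to 57.6 per Mb, near the value of all genes.

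Signalling pathways were dense as well. The insulin and TOR pathway had 194 per Mb in 7 of 10 members, led by InR, the insulin receptor (6), Sesn, a sestrin that restrains TOR (4), and foxo, the transcription factor below insulin (4). The Notch, Wnt, Hedgehog, Dpp and JAK/STAT genes had 155 per Mb in 23 of 40 members, with shn (14), fz2 (11), tkv, a Dpp receptor (9), and Ptp61F, a phosphatase that restrains JAK/STAT (9). Genes of the EGF receptor, FGF receptor and Ras pathway had 126 per Mb in 18 of 26 members, the largest share of members after insulin and TOR genes. In that list aop (11), Raf (9), the ligand gene vn (4) and Pvf3, a ligand of the PDGF and VEGF type (4), led. Hippo and planar polarity genes had 106 per Mb in 8 of 14, with kibra (7), the kinase gene wts (5) and the polarity gene pk (5) at the top.

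Muscle, epithelial and body pattern genes were nearer to the value over all genes. Muscle genes had 75.4 per Mb in 19 of 33, led by kirre (13), Mef2 (12), the integrin gene mew (6) and Msp300, a nesprin (4), and without kirre, whose introns are very long, the density was 92.0 per Mb. The gene rst, which lies inside the span of kirre and held 2 summits, stayed in that value. Septate junction, tracheal and cuticle matrix genes had 72.6 per Mb in 10 of 18, with the FGF ligand gene bnl (3) and uif (3) first. Homeotic and segmentation genes had 63.8 per Mb in 7 of 15, but 45.1 without hth. In that list the Hox genes Ubx and Antp held 4 summits each and Abd-B held 3.

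The 6 lists below the value over all genes included neural, signalling and RNA-binding genes. In 4 of them the share of members with a summit was above 35.5%. Their median room ran from 13.6 to 31.6 kb, against 7.08 kb over all protein-coding genes with room. Of all genes with 10 to 20 kb of room 43.6% held a summit, and of those with 20 to 50 kb 55.7%. The part of room in these shares was not tested. Neural transcription factors had 52.8 per Mb in 19 of 36 members (52.8%), with luna (8) and sr, an EGR-type factor also known for tendon cells (7), at the top. Cyclic nucleotide and calcium signalling genes had 40.1 per Mb in 18 of 34 (52.9%), led by the phosphodiesterase gene dnc (7). Axon guidance and neural adhesion genes had 33.6 per Mb although 29 of 58 held a summit, with a median room of 31.6 kb and with caps (9), haf (7), the teneurin gene Ten-a (6) and Sema1a (6) first. RNA-binding protein genes had 23.8 per Mb in 12 of 23 (52.2%), with a median room of 31.4 kb, led by pum, a translational repressor (7).

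Ion channel and synaptic genes had 11.9 per Mb, with a summit in 10 of 50 members, the lowest share of any list with a summit. Both replicates gave low values there too, 14.05 and 11.2 per Mb. Ca-beta, a calcium channel subunit, and the potassium channel gene Shab held 4 each. None of 5 chemosensory receptor genes with room held a summit. Cytoplasmic ribosomal protein and proteasome genes had no member with room, so nothing can be said of them here.

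**Figure D5:**
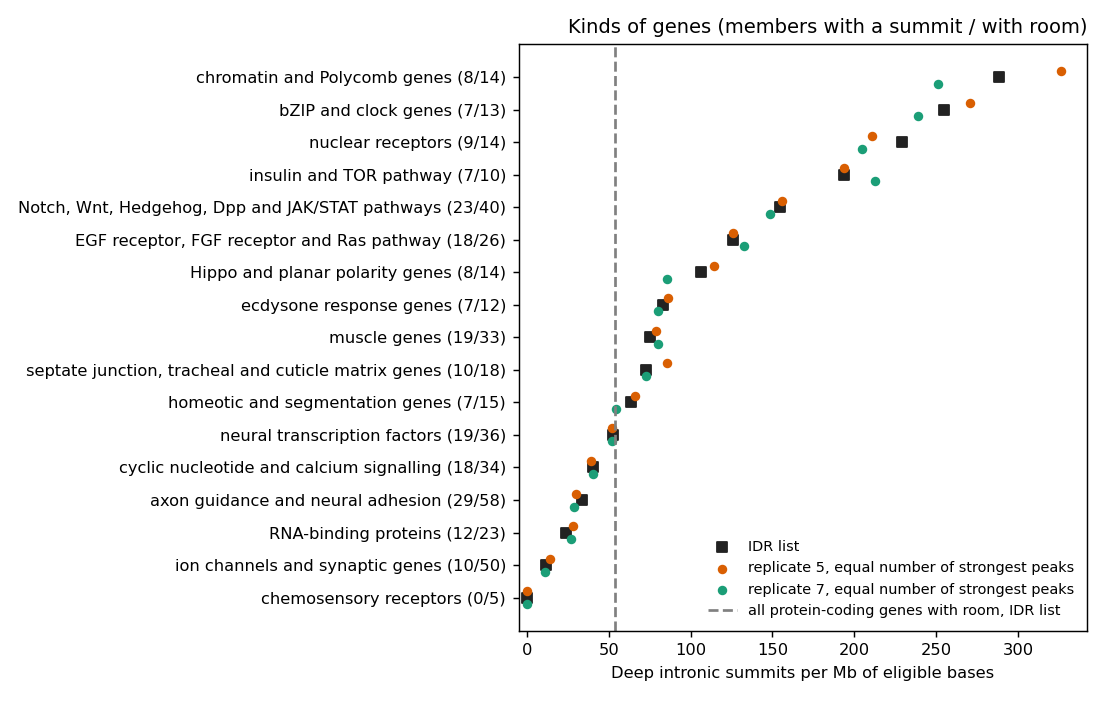
Deep intronic summits per Mb of eligible bases (x axis) for 17 kinds of genes, in the reproducible list and in the equally long lists of replicates 5 and 7, with members holding a summit and members with room in brackets. The dashed line is the 54.1 per Mb of all protein-coding genes with room. Chromatin and Polycomb genes lie farthest above it at 288, and chemosensory receptors, with only 5 members with room, lie at 0.

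The sequence around deep intronic summits held fewer of the words typical of gene starts. In windows reaching 100 bp to each side, 38 words were searched on both strands, and their shares were compared with those at the 3447 promoter summits. The share in windows centred 600 bp to each side of the deep intronic summits, called flanks, served as their local background. Of the 38 words, 11 (28.9%) were less frequent and 6 (15.8%) more frequent at deep intronic than at promoter summits after Benjamini-Hochberg adjustment of exact two-sided Fisher tests. The DRE word ATCGATA was in 1.78% of deep intronic windows, 8.36% of promoter windows and 2.15% of the flanks (adjusted p = 5.37e-27, exact Fisher test). Its share at deep intronic summits was thus not above that of the flanks. The same held for the E-box CAGCTG, with 7.93%, 13.6% and 7.96%, while the core promoter word GTCACAC of Motif 1 was at 1.78%, 4.99% and 1.67%. The GAGA word GAGAG, bound by the GAGA factor in flies, was in 29.0% of deep intronic and 35.9% of promoter windows. The deep intronic share was above the 22.1% of the flanks of those summits. The other lower words were those of BEAF, Motif 6, Motif 7, the initiator, Adf-1, ETS factors and the GAGA repeat.

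The 6 words more frequent than at promoters included words of POU, TEAD, Sox and nuclear receptor proteins. The POU word ATGCAAAT was in 3.83% against 2.06%, CATATG in 8.11% against 5.57%, the TEAD word GGAATG in 11.3% against 8.30%, the Sox word ACAATG in 12.2% against 9.17%, the Pho word GCCAT in 34.03% against 29.6%, and the nuclear receptor word AGGTCA in 5.38% against 3.86% (adjusted p from 0.000519 to 0.0179, exact Fisher tests). In the flanks the POU, Sox and Pho words were more frequent still, at 4.64%, 14.2% and 36.7%, so their excess over promoters was not an excess over the surrounding intron. Of the 17 words past the threshold, 5 were still past it in the strongest 2143 peaks. Among them the nuclear receptor word AGGTCA had an odds ratio against promoters of 2.31 in place of 1.42. The ETS word had 0.425 in place of 0.698. The DRE word had 0.318 in place of 0.198, the BEAF word 0.565 in place of 0.454 and the Motif 7 word 0.451 in place of 0.423. Words no longer past it there included GAGAG, with an odds ratio of 0.967 in place of 0.731, and GAGAGAGA, with 0.940 in place of 0.627. GTCACAC had 0.723 in place of 0.344, the Adf-1 word 0.920 in place of 0.719, and CATATG 0.976 in place of 1.496. Without replicate 7 the POU word no longer passed (odds ratio 1.46, adjusted p = 0.0577 in the exact Fisher test, in place of 1.89). Deep intronic windows had a median GC content of 43.3%, against 39.3% in the flanks and 44.8% at promoters, and its part in these shares was not tested.

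Against the flanks, the widest ratios among the 38 words were those of the cyclic AMP response element TGACGTCA and of the Tramtrack word AGGACC. The CA repeat CACACACA was in 9.79% of deep intronic windows and 4.32% of flanks, the Grainyhead word AACCGGTT in 0.774% and 0.374%, the GAGA repeat GAGAGAGA in 2.64% and 1.57%, the forkhead word TGTTTAC in 7.93% and 5.11%, and TGACGTCA in 0.683% and 0.1497%. Lower than in the flanks were the run TTTTTTTT (7.70% against 15.2%), the homeodomain word TAATTA (10.5% against 16.2%) the word TGATGCAA of ATF4-like proteins (0.364% against 0.773%) and AGGACC (0.638% against 2.22%). The comparison with flanks is without a test, and TGACGTCA was in only 15 deep intronic and 6 flank windows. Promoter shares were 8.09% for CACACACA, 0.609% for AACCGGTT, 4.15% for GAGAGAGA, 7.31% for TGTTTAC and 0.667% for TGACGTCA. They were 6.21% for TTTTTTTT, 9.02% for TAATTA, 0.174% for TGATGCAA and 1.25% for AGGACC. Of these words only GAGAGAGA was past the threshold against promoters.

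The CTGAG words printed above were found by ranking all 8-letter words in the odd-ranked members by their share over the flanks and reading their shares in the 1097 even-ranked members. Of the 12 words ranked first, several were close to the flanks in the even-ranked members, such as AGGGTATC, in second place, with a ratio of 1.99, GGGAGAGA with 1.83 and GGCGCCCA with 0.860. ACACTGAG was in 2.10% of the even-ranked windows and 0.299% of the flanks, a ratio of 7.00, and CACTGAGA was in 2.64% and 0.574%. The same flanks had served to rank the words, so words with a low flank share by chance were favoured. The ratios to the flanks may therefore be too high. Any of the 4 words was in 42 even-ranked windows (3.83%, interval 2.77% to 5.14%), in 1.20% of the flanks, in 3.05% of promoter windows and in 3.26% of intronic windows near a TSS. The words were thus not particular to deep introns. Over all members, 97 windows held one, and in 47 of them (48.5%) the word lay in sequence masked as repeat. A match is only a description of the letters and does not show which protein was bound.

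The arms of the genome held deep intronic summits roughly by their room, except the small chromosome 4. It had 2 summits on 1.04% of the eligible bases, a ratio of 0.0878 (exact binomial test, adjusted p = 4.18e-07 over 6 arms), with 0 summits and an adjusted p of 0.158 in the exact test on the strongest 2143 peaks. For the other 5 arms the ratio ran from 0.923 (X) to 1.10 (3L), and none passed the threshold (exact tests, adjusted p from 0.0575 to 0.5003).

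Values on either side of the 2000 bp limit are given without a test. The 106 members between 2000 and 2200 bp from a TSS had a median value of 246, and the 133 intronic peaks between 1800 and 2000 bp had one of 282. Just inside was a peak in bol, a germline RNA-binding protein gene (2001 bp, value 427), and the nearest outside were in sr (1998 bp, 204) and slim (1996 bp, 209).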

How the data were processed

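ChIP-seq peak lists of 2 replicates, their pooled list and the IDR list were used. The authors deposited dm6 peak intervals with a signal value and a summit per peak, per the deposited notes, and neither aligner, caller nor scale is stated in those notes or the labels. Summits were read as start plus offset, and 3 outside their interval were moved to its edge. Genes, exons and TSSs came from Ensembl release 115 (FlyBase), sequences and repeats from the RefSeq dm6 genome. Tests were exact binomial and Fisher tests (Python 3.11.15, scipy 1.17.1, numpy 2.4.6, pandas 2.3.3), with Benjamini-Hochberg adjustment over 38 words or 6 arms and a threshold of 0.05. Scripts were tested on simulated data. The depth per sample is unknown.

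Genes named were the 20 hosts with most summits, hosts of the 20 strongest peaks and hosts at the 2000 bp limit. Up to 4 members with most summits were named from each list. Genes without a summit, dense hosts and large groups were named by their order on those values. Windows were chosen by the value of their peak, and peaks on 2R gave no printed window. List names were matched to symbols or synonyms, 5 of them by hand after a first look. Of 22 lists, those of cytoplasmic ribosomal, mitochondrial ribosomal, proteasome and oxidative phosphorylation genes had 0, 1, 0 and 3 members with room and 0 summits, and 1 list is not reported here. The members and lists were chosen with earlier results of these data known. Alternatives were stronger or longer peak lists, single replicates, other limits and windows, merged intervals and repeats left out.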

Additional observations from a re-analysis of the deposited data

How the results depend on the processing

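Of 94 recomputed values that answer a comparison, 82 kept their direction, their side of the threshold and, for counts and shares, about their size. The whole pooled list gave a density ratio of 1.09, the opposite direction of the reported 0.827, a clustering share of 85.0% and 5 arms past the threshold. A TSS limit of 1000 bp gave a ratio of 0.977, no longer past the threshold. The strongest 2143 peaks gave a clustering share of 19.4%, 0 arms and 6 words past the threshold, and CATATG turned to an odds ratio of 0.976. Clustering was 41.9% with 1 summit per merged interval and 63.0% within 5000 bp. Replicate support turned to a difference of 1.52 points with all peaks of each replicate, and without replicate 5 or 7 its difference was -2.75 or -3.03 points, nearer to 0 than the reported -5.29. Leaving out a replicate gave 1 to 2 arms past the threshold, 3L beside 4 without replicate 5, and leaving out repeats, an alternative chosen after seeing the data, gave 3. A shorter peak list holds fewer neighbours by construction, and the cause of the other changes was not tested. Of 170 values for single words, 151 kept their side, 18 were no longer past the threshold, among them the POU word without replicate 7 (odds ratio 1.46), and 1 turned. Of 187 shares for single lists, 162 stayed within the interval of the reported share and 25 moved, most of them with the strongest or the pooled peaks. No paired analysis was possible because there is 1 group.

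The peak lists hold no counts, so depth limits cannot be given. There are 2 replicates of 1 line, and whether the authors' peak calling used the control experiment is not stated in the labels or the deposited notes, so signal that a control would share cannot be told apart here from signal of the tagged protein.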
